A study of Homo sapiens with 3 samples.

Results

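The genes described here are 40 genes of mitosis, the step in which a cell separates its copied chromosomes. They were chosen by name, as a list of cyclins, mitotic kinases, spindle checkpoint proteins, kinesins, centromere proteins and chromosome-condensing proteins. Earlier results of these data were known when the list was chosen, so it is not independent of them. They were read in KYSE150 cells, an established line from a human oesophageal squamous carcinoma. All 40 had a probe set paired with their symbol alone, out of 18132 genes on the array with such a probe set, and each gene was read from its brightest one. The level of each member, averaged over the arrays, lay between log2 6.55 and 12.46, and all 40 passed a filter on dim genes set at log2 5.27, which 12232 genes passed.

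The cells had received an empty vector (the control), pcDNA3.1 carrying wild-type LOXL2 (the LOXL2 WT array) or pcDNA3.1 with the form that the labels call LOXL2 delta72, and RNA was taken 48 h later. LOXL2 encodes lysyl oxidase like 2, an amine oxidase that crosslinks collagen and elastin, and pcDNA3.1 is a plasmid that drives its insert from a strong viral promoter. The share of cells that took up plasmid is not given in the sources used here. Each condition was represented by 1 array, so no difference has a replicate check, no test was made, and words such as "higher" or "lower" describe these hybridisations only. Both forms were compared with the same control array, so the differences from control are not independent of each other.

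Cells entering mitosis build up cyclin B, which activates the kinase CDK1. The spindle checkpoint then holds the cell until every chromosome is attached to the spindle, after which a ubiquitin ligase, the anaphase-promoting complex (APC/C), starts the destruction of cyclin B. Many genes of this programme are transcribed mainly in G2 and mitosis, so in a culture their RNA level depends on how many cells are in those phases. On an array of bulk RNA, fewer cells in mitosis and less RNA per cell cannot be told apart.

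Most mitosis genes read slightly lower with each form of LOXL2 than with the empty vector, a control array that both comparisons share. No member reached 1.5-fold in either direction, against 0.867% of all genes lower and 1.85% higher by that size with LOXL2 WT and 0.499% and 1.28% with LOXL2 delta72. With LOXL2 WT, 33 of 40 members were lower than control (82.5%, against 51.7% of all 12232 genes), with a median log2 difference of -0.17, against -0.01 for all genes. With LOXL2 delta72, 36 of 40 were lower (90.0%, against 49.8% of all genes), with a median of -0.16, against 0.00 for all genes. Between the forms, which does not involve the control array, the members showed no common direction, with 22 lower and 18 higher with LOXL2 delta72 (55% lower, against 49.3% of all genes, and 45% higher, against 50.4%) and a median of -0.01.

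**Figure D1:**
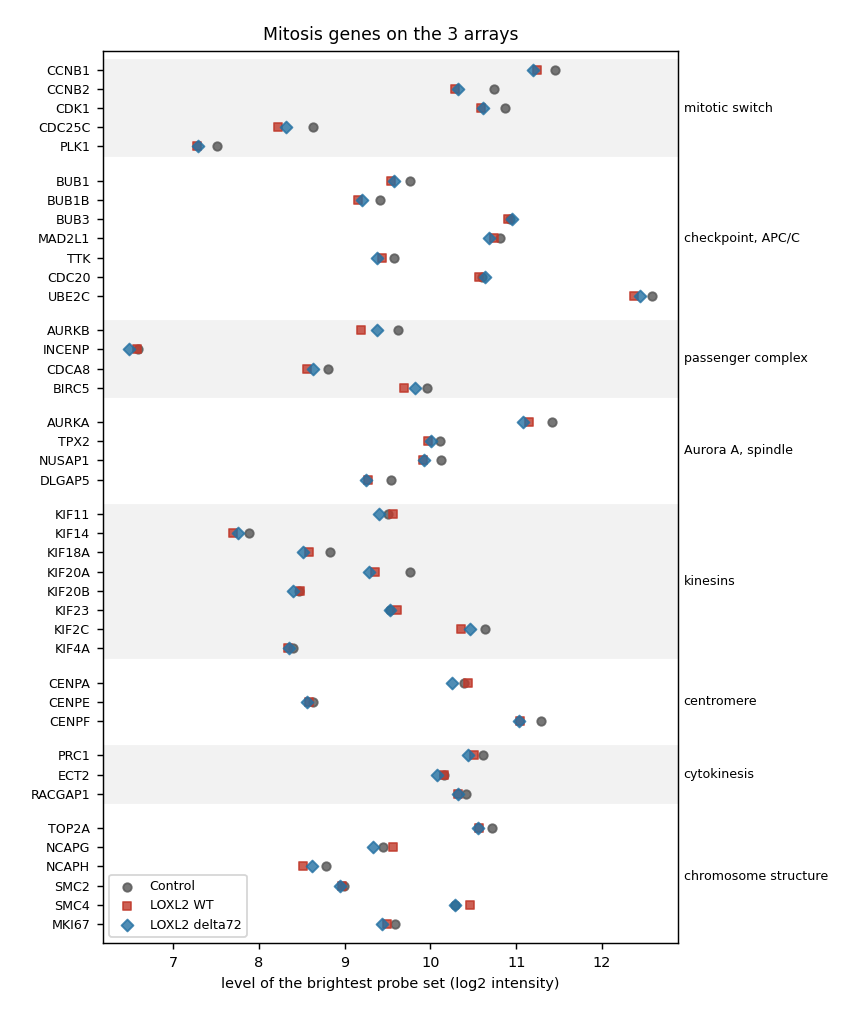
Level of each of the 40 mitosis genes on the 3 arrays, as the log2 intensity of its brightest probe set, ordered by role (grey circles, control; red squares, LOXL2 WT; blue diamonds, LOXL2 delta72). CCNB2, for example, reads 10.74, 10.29 and 10.33; levels of different genes are not comparable, since each probe set has its own response.

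The promoters of these genes are shown because many mitotic genes are known to share a short promoter element, the cell cycle genes homology region (CHR), whose usual form is TTTGAA, together with the CCAAT box bound by the factor NF-Y. Promoter windows (250 bases before to 50 after the transcription start, RefSeq, GRCh38.p14) were listed for 33 of the 40 members, in 41 windows. BUB3, TTK, UBE2C, BIRC5, AURKA, TPX2 and RACGAP1 were the others. The 120 bases before the start are given below for 8 members with a single window, namely the 4 with the lowest and the 4 with the highest mean difference of both forms from control. They are written 5′ to 3′ on the gene's strand, with TTTGAA and CCAAT on either strand in capitals (on the opposite strand they read TTCAAA and ATTGG).
KIF20A, chr5:138178992-138179111, plus strand: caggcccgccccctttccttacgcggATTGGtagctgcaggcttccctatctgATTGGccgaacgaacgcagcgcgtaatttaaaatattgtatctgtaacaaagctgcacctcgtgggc
CCNB2, chr15:59105026-59105145, plus strand: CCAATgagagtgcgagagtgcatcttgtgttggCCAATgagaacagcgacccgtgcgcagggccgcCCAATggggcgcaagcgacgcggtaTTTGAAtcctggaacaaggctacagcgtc
DLGAP5, chr14:55191586-55191705, minus strand: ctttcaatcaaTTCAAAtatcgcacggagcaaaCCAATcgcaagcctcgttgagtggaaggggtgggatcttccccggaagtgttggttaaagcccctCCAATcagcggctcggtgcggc
KIF18A, chr11:28108157-28108276, minus strand: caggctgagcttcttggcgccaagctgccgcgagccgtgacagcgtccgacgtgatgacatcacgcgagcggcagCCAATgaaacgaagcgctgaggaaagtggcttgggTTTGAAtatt
KIF23, chr15:69414229-69414348, plus strand: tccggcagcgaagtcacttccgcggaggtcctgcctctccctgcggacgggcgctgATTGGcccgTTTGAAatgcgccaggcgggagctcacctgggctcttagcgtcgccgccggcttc
CDC20, chr1:43358861-43358980, plus strand: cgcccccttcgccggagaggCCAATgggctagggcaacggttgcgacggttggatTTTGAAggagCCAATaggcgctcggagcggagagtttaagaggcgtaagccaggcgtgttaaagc
NCAPG, chr4:17810859-17810978, plus strand: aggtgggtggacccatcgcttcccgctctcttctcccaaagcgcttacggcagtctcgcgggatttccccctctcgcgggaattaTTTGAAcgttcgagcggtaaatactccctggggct
KIF11, chr10:92593010-92593129, plus strand: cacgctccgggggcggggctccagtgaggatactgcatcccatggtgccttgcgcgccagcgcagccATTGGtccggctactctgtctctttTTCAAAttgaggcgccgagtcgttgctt

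Among the 27 members with a single window, KIF20A, CCNB2, DLGAP5 and KIF18A had the lowest mean differences, and KIF23, CDC20, NCAPG and KIF11 the highest. Both sets held these letters. TTTGAA stood at -29 in CCNB2 and at -10 in KIF18A, counted from the transcription start to the leftmost base of the match, and likewise at -55 in KIF23 and at -35 in NCAPG. Within its whole window KIF20A had CCAAT matches at -94 and -67 and no TTTGAA, which says only that those letters are not in that window.

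Over all members, 29 of 41 windows (70.7%) held TTTGAA on either strand, against 15.2% of all 35116 promoter windows and 10.4% of those of genes that passed the filter. CCAAT was found in 30 of 41 (73.2%, against 34.6% of all windows), and both motifs in 24 of 41 (58.5%, against 5.9%). A rarer variant, TTCGAA, was found in 1 member window, that of BUB1 (2.44%, against 1.45% of all windows). The 39 TTTGAA matches in member windows had a median position of -29, against -125 for the 6238 matches in all windows. Of the member matches, 2 pairs of TTTGAA and CCAAT shared a base. Windows of DNA replication and G1/S genes, the genes used before mitosis to copy DNA, held TTTGAA in 1 of 43 cases (2.33%). They held CCAAT in 25 of 43 (58.1%). Among lists described below, further cell-cycle-regulated mitotic genes held TTTGAA in 22 of 46 windows (47.8%), and TTTGAA with CCAAT in 18 (39.1%). Other kinetochore and checkpoint genes held TTTGAA in 12 of 31 (38.7%), and with CCAAT in 7 (22.6%). For APC/C subunits the TTTGAA share was 14.8% and for cohesin and its regulators 15.4%, near that of all windows. A raised share was thus not particular to the members.

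The 26 members with TTTGAA in a window had a median difference of -0.09 with LOXL2 WT and -0.15 with LOXL2 delta72, and the 7 without it, which were CCNB1, BUB1, AURKB, KIF20A, KIF2C, CENPE and NCAPH, had -0.27 and -0.18. All 7 were lower with each form, as were 19 of the 26 with TTTGAA with LOXL2 WT (73.1%) and 23 with LOXL2 delta72 (88.5%). Among all genes that passed the filter and had a window, the 1354 with TTTGAA had medians of -0.0080 and -0.013, and the 8600 without it -0.0022 and 0.0044, so that both groups lay close to 0; with the motif 52.7% and 52.1% were lower, and without it 50.4% and 48.7%.

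**Figure D2:**
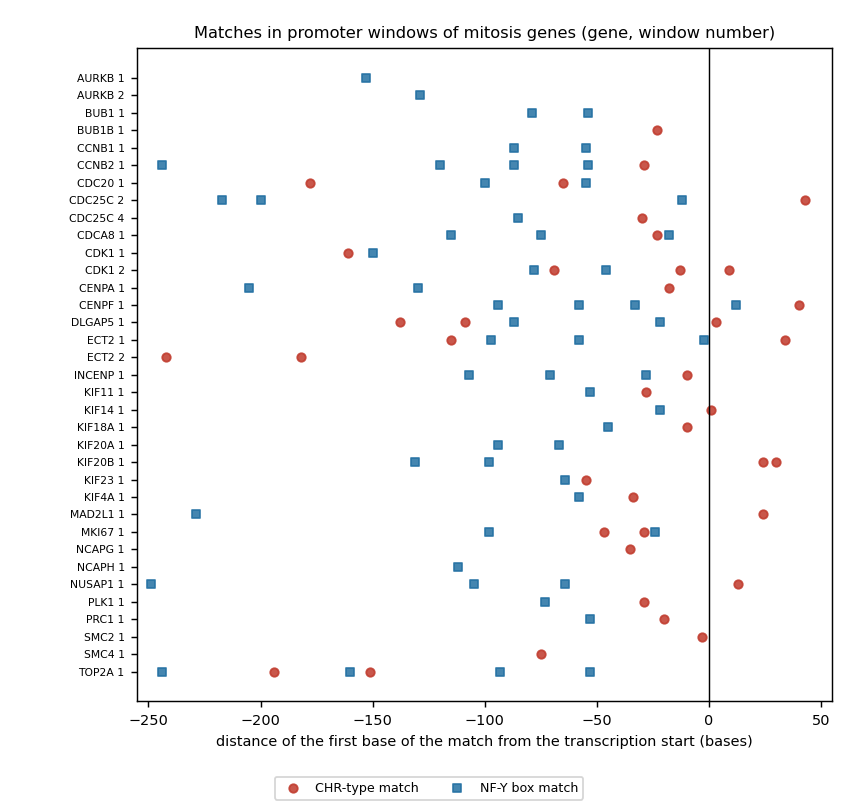
Position of TTTGAA (CHR-type, red circles) and CCAAT (NF-Y box, blue squares) matches on either strand in the promoter windows of the mitosis genes, as the distance in bases from the transcription start to the leftmost base of the match. Each row is 1 window; the 35 windows with a match are shown, and the red circles have a median position of -29.

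The switch into mitosis is set by cyclin B and CDK1, with PLK1 and the phosphatase CDC25C activating CDK1. All 5 genes of this group were lower with both forms (against 51.7% of all genes with LOXL2 WT and 49.8% with LOXL2 delta72). CCNB2, which encodes cyclin B2, read 10.74 on the control array, 10.29 on the LOXL2 WT array and 10.33 on the LOXL2 delta72 array. It was 1.36-fold lower with LOXL2 WT (-0.44) and 1.33-fold lower with LOXL2 delta72 (-0.41), on 1 probe set. With LOXL2 WT it had the lowest difference of the 40 members, and 2.47% of all genes lay below it. CDC25C read 8.63, 8.23 and 8.32 on the same arrays, at -0.41 (SD 0.02 over 2 probe sets) and -0.31 (SD 0.01). Both of its probe sets gave nearly the same difference.

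CDK1, the central mitotic kinase, read 10.87 on the control array, 10.59 with LOXL2 WT and 10.61 with LOXL2 delta72. Its differences were -0.27 (SD 0.11 over 2 probe sets) and -0.26 (SD 0.04). CCNB1, the gene of cyclin B1, read 11.45, 11.24 and 11.19, or -0.21 and -0.25 on 1 probe set. PLK1, a kinase that acts from mitotic entry to cytokinesis, read 7.51, 7.28 and 7.29. These 3 genes, like CCNB2 and CDC25C, had the control array highest and both LOXL2 arrays within 0.1 of each other. The PLK1 difference with LOXL2 WT was -0.24 on the brightest probe set and 0.00 on the other above the filter, so its probe sets disagreed (SD 0.17).

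The chromosomal passenger complex, which corrects faulty attachments of chromosomes to the spindle, consists of the kinase AURKB, the scaffold INCENP, CDCA8 (borealin) and BIRC5 (survivin). All 4 genes were lower with both forms (against 51.7% and 49.8% of all genes), with medians of -0.25 and -0.15. AURKB read 9.62 on the control array, 9.19 with LOXL2 WT and 9.38 with LOXL2 delta72. Its LOXL2 delta72 value lay between the others, and it was 0.19 higher with LOXL2 delta72 than with LOXL2 WT, the highest such difference among the members; 92.6% of all genes lay below it. BIRC5 read 9.96, 9.70 and 9.82. All 9 BIRC5 probe sets above the filter were lower with LOXL2 WT (median -0.24, SD 0.11) and with LOXL2 delta72 (median -0.21, SD 0.10), which made it the member with the most probe sets in the same direction. CDCA8 read 8.80, 8.56 and 8.64 (-0.24 and -0.16). For INCENP the brightest probe set read 6.59, 6.57 and 6.49, at -0.02 and -0.11, while its dimmer one read -0.40 and -0.45.

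Aurora A and the spindle assembly factors gave a similar picture, with 4 of 4 genes lower with each form (against 51.7% and 49.8% of all genes). Their medians were -0.24 and -0.25. AURKA, the kinase of centrosomes and spindle poles, read 11.41 on the control array, 11.15 with LOXL2 WT and 11.08 with LOXL2 delta72, or -0.26 and -0.33 on 1 probe set. DLGAP5, a stabiliser of spindle microtubules, read 9.54, 9.27 and 9.24, with differences of -0.28 (SD 0.01 over 2 probe sets) and -0.30 (SD 0.03). In both genes the LOXL2 arrays lay close together and below the control. NUSAP1, which bundles microtubules, stood at -0.21 and -0.19 over the same comparisons, and TPX2, the activator of AURKA, at -0.15 and -0.11.

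The spindle checkpoint and APC/C group was lower in 7 of 7 genes with LOXL2 WT and in 5 of 7 with LOXL2 delta72 (100% and 71.4%, against 51.7% and 49.8% of all genes). On the brightest probe set 0 of 7 were at least 1.2-fold lower (against 11.4% and 7.75% of all genes). BUB1 read 9.76 on the control array, 9.54 with LOXL2 WT and 9.57 with LOXL2 delta72, and BUB1B, the gene of BubR1, read 9.41, 9.15 and 9.20. Both encode checkpoint proteins of the kinetochore, and in both the control array was highest. TTK, the kinase that starts checkpoint signalling, differed by -0.14 and -0.20, and MAD2L1, the checkpoint protein that inhibits CDC20, by -0.06 and -0.13. UBE2C, the ubiquitin-conjugating enzyme of the APC/C, read 12.58, 12.37 and 12.44, and all 4 of its probe sets were lower with both forms (medians -0.32 and -0.20). With LOXL2 WT its other 3 probe sets, at -0.36, -0.33 and -0.32, were past 1.2-fold.

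CDC20, the activator of the APC/C, read 10.60, 10.57 and 10.64, and BUB3, a checkpoint protein present through the whole cycle, 10.93, 10.91 and 10.95. Their brightest probe sets had differences of -0.03 and -0.02 with LOXL2 WT and 0.04 and 0.02 with LOXL2 delta72, so the 3 arrays were nearly equal for both. The median over the 3 BUB3 probe sets was -0.14 with LOXL2 WT and -0.12 with LOXL2 delta72.

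**Figure D3:**
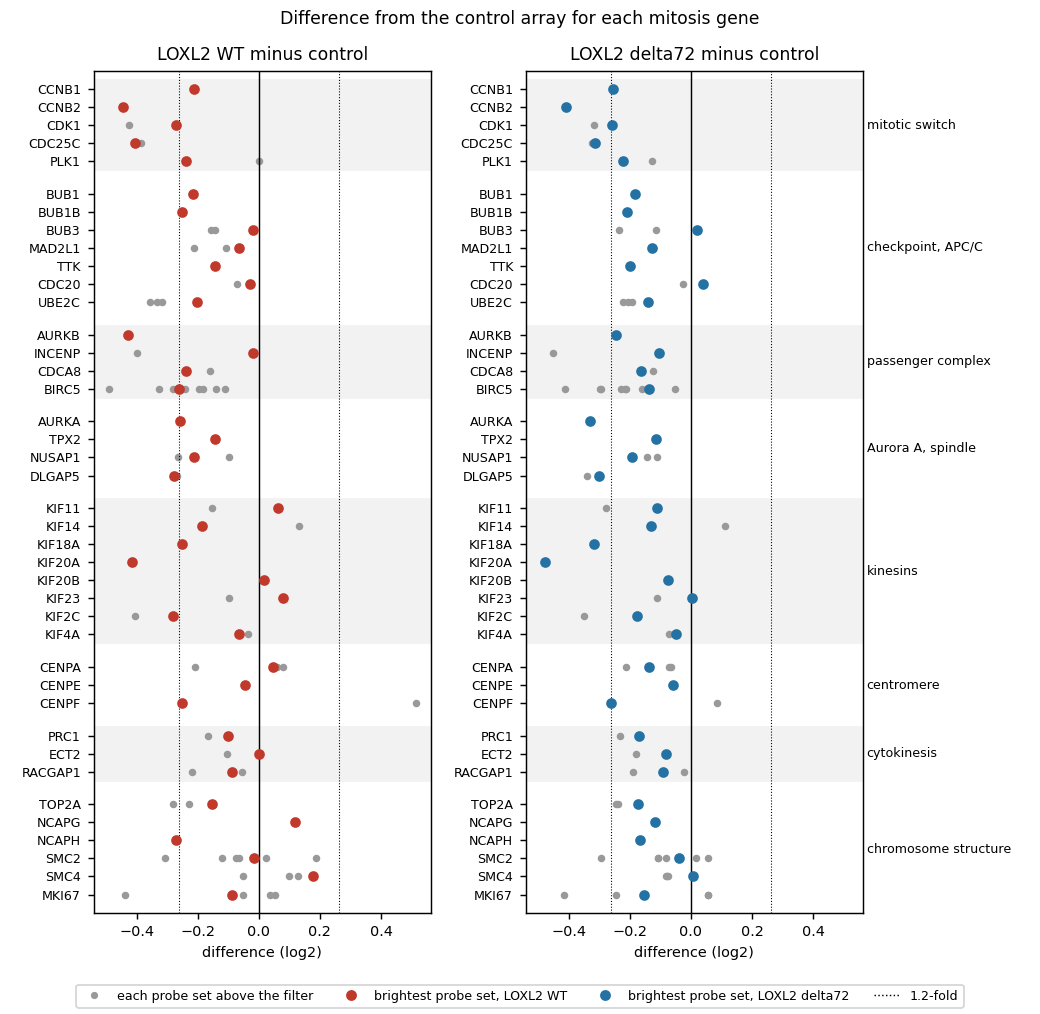
Log2 difference from the control array for each mitosis gene with LOXL2 WT (left, red) and LOXL2 delta72 (right, blue); large points are the brightest probe set, grey points every other probe set above the filter, and dotted lines mark 1.2-fold. With LOXL2 WT 8 genes lie at or beyond the left dotted line and with LOXL2 delta72 6, and no brightest probe set lies beyond the right one.

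The 8 kinesins, motor proteins that build the spindle and move chromosomes, were spread more widely. KIF20A, a kinesin of the central spindle needed for cytokinesis, read 9.76 on the control array, 9.35 with LOXL2 WT and 9.29 with LOXL2 delta72. It was at -0.41 and -0.48 (1.39-fold lower with LOXL2 delta72), the lowest LOXL2 delta72 difference of the list, with 1.22% of all genes below it. KIF18A, which dampens chromosome oscillation, read 8.83, 8.58 and 8.52, or -0.25 and -0.32. KIF2C, a microtubule depolymeriser at centromeres, read 10.63, 10.35 and 10.46, or -0.28 (SD 0.09 over 2 probe sets) and -0.18 (SD 0.12). In these 3 kinesins the control array was highest.

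KIF14 was at -0.19 and -0.13, although its dimmer probe set had the opposite sign (0.13 and 0.11), and KIF4A, a chromosome-bound motor, was at -0.07 and -0.05. KIF11 (Eg5), which pushes the spindle poles apart, read 9.51 on the control array, 9.57 with LOXL2 WT and 9.40 with LOXL2 delta72. KIF23, the motor of the centralspindlin complex, read 9.53, 9.61 and 9.53, and KIF20B 8.47, 8.49 and 8.39. For these last 3 the LOXL2 WT array was highest, by 0.06, 0.08 and 0.02 over control, and KIF11 and KIF23 each had another probe set below control with LOXL2 WT.

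Among the cytokinesis genes, PRC1, the microtubule bundler of the central spindle, differed by -0.10 and -0.17 and RACGAP1 by -0.09 and -0.09. ECT2, the exchange factor that triggers the contractile ring, read 10.16 on the control array, 10.16 with LOXL2 WT and 10.08 with LOXL2 delta72. All 3 genes were thus within 1.2-fold of control.

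Centromere and chromosome genes did not share a direction with LOXL2 WT. CENPF, an outer kinetochore protein, read 11.29, 11.04 and 11.03 on the control, LOXL2 WT and LOXL2 delta72 arrays, or -0.25 and -0.26. Its dimmer probe set was 0.51 higher with LOXL2 WT and 0.09 higher with LOXL2 delta72, the widest disagreement among the members (SD 0.54 and 0.25). CENPE, a kinetochore motor, differed by -0.04 and -0.06. CENPA, the centromeric histone, read 10.39, 10.44 and 10.25, with the LOXL2 WT array highest and the LOXL2 delta72 array lowest.

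TOP2A, the topoisomerase that untangles chromosomes, read 10.72, 10.57 and 10.55, and its 3 probe sets were all lower with both forms (-0.15, SD 0.06, and -0.17, SD 0.04). MKI67, which coats mitotic chromosomes and is the antigen Ki-67 used to mark dividing cells, read 9.58, 9.50 and 9.43. Its differences were -0.09 and -0.15, with an SD of 0.20 over 5 probe sets in each comparison, of which 3 were lower with LOXL2 WT. The difference of MKI67 was therefore smaller than the disagreement of its probe sets.

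The 4 condensin genes in the list did not move as a unit. NCAPH, a condensin I subunit, read 8.79 on the control array, 8.52 with LOXL2 WT and 8.62 with LOXL2 delta72, or -0.27 and -0.17. NCAPG, another condensin I subunit, read 9.44, 9.56 and 9.33, and SMC4, an ATPase subunit, 10.28, 10.46 and 10.29. SMC4 with LOXL2 WT was the highest of all members, at 0.18 over control (SD 0.10 over 4 probe sets). SMC2, its partner, stood at -0.02 and -0.04 (SD 0.15 and 0.11 over 7 probe sets). The call of NCAPH rests on its brightest probe set, since the median over all of its probe sets, the others being below the filter, was 0.12 with LOXL2 WT.

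By size, 8 of 40 members were at least 1.2-fold lower with LOXL2 WT (20.0%, against 11.4% of all genes), and 0 were at least 1.2-fold higher (0%, against 13.7% of all genes). They were CCNB2, AURKB, KIF20A, CDC25C, KIF2C, DLGAP5, CDK1 and NCAPH. With LOXL2 delta72, 6 of 40 were at least 1.2-fold lower (15.0%, against 7.75% of all genes) and 0 higher (0%, against 11.0% of all genes), namely KIF20A, CCNB2, AURKA, KIF18A, CDC25C and DLGAP5. Many members lay near this size. After a shift of the arrays to equal medians, 15 of 40 members were at least 1.2-fold lower with LOXL2 WT, against 15.2% of all genes. With LOXL2 delta72 10 of 40 members were, against 10.4% of all genes. That shift took the lower share of all 1.2-fold calls from 45.5% to 58.4% with LOXL2 WT and from 41.3% to 53.8% with LOXL2 delta72.

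Nearly all single members lay within the spread of all genes. The central 95% of the 12232 genes lay between -0.44 and 0.54 with LOXL2 WT and between -0.39 and 0.47 with LOXL2 delta72. CCNB2 lay below that range with both forms and KIF20A with LOXL2 delta72. Percentiles 25 and 75 of the members were -0.25 and -0.03 with LOXL2 WT and -0.23 and -0.10 with LOXL2 delta72.

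Probe sets of the same gene give a check of the reading, though on the same RNA. The members had 105 probe sets, of which 92 were above the filter. Of these 92, 74 were lower than control with LOXL2 WT (80.4%, against 51.1% of all 27189 such probe sets) and 82 with LOXL2 delta72 (89.1%, against 50.1%). Between the forms 51 of 92 were lower with LOXL2 delta72 (55.4%, against 50.5%). Among the 26 members with more than 1 probe set above the filter, all probe sets were lower in 16 with LOXL2 WT and in 18 with LOXL2 delta72, and all higher in 0 and 0. This count was not made over all genes, so it has no background to be set beside. The pooled SD between probe sets of a member was 0.14 with LOXL2 WT and 0.11 with LOXL2 delta72, beside median differences of -0.17 and -0.16.

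The comparison of LOXL2 delta72 with LOXL2 WT held 0 members at least 1.2-fold lower (against 2.02% of all genes) and 0 higher (against 3.11%). The lowest member was NCAPG at -0.23, followed by CENPA at -0.19 and by KIF11 and SMC4, each at -0.17 (SD 0.03 over 2 probe sets and 0.08 over 4). The highest were AURKB at 0.19, BIRC5 at 0.12 (SD 0.06 over 9 probe sets) and KIF2C and NCAPH at 0.11. For NCAPG and SMC4 the LOXL2 WT array was the one that stood above the others, and for AURKB it was the one that stood lowest. All 7 members that were above control with LOXL2 WT read lower with LOXL2 delta72, as choosing them by a high LOXL2 WT value favours.

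Further mitotic genes that are known to be cell-cycle-regulated, taken from a list of 40 of which 39 passed the filter, were also mostly lower. With LOXL2 WT 30 of 39 were lower (76.9%, against 51.7% of all genes, median -0.11) and 12 of 39 at least 1.2-fold lower (30.8%, against 11.4%). With LOXL2 delta72 35 of 39 were lower (89.7%, against 49.8%, median -0.15) and 9 of 39 at least 1.2-fold lower (23.1%, against 7.75%). The list ran with LOXL2 WT from HJURP, the chaperone of CENPA, at -0.47 to ASPM, a spindle pole protein, at 0.13. CCNA2, the gene of cyclin A2, read 10.06 on the control array, 9.66 with LOXL2 WT and 9.48 with LOXL2 delta72, or -0.40 and -0.58 (SD 0.04 and 0.07 over 2 probe sets), the lowest of the list with LOXL2 delta72. KIF18B was the highest there, at 0.07. Between the forms 22 of 39 were lower (56.4%, against 49.3% of all genes), from KIF15 at -0.28 to KIF22 at 0.20 (SD 0.06 over 3 probe sets).

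The other condensin subunits were lower in 3 of 4 cases with each form (against 51.7% and 49.8% of all genes). They ran from NCAPD2 at -0.40 and -0.31 to NCAPH2, a condensin II subunit, at 0.11 and 0.18. Between the forms NCAPG2 was lowest at -0.01 and NCAPD2 highest at 0.09. Kinetochore and checkpoint genes outside the list showed no common direction with LOXL2 WT, where 15 of 31 were lower (48.4%, against 51.7% of all genes) with a median of 0.00. These genes were taken by role and were not sorted by whether they are cell-cycle-regulated. With LOXL2 delta72 19 of 31 were lower (61.3%, against 49.8%, median -0.05). NUF2, a subunit of the microtubule-binding NDC80 complex, was at -0.37 and -0.32. MIS12, another kinetochore gene, was instead at 0.58 and 0.50 (SD 0.14 and 0.06 over 3 probe sets). CENPI was at -0.05 and -0.52 (SD 0.11 and 0.07 over 2 probe sets), and was 0.46 lower with LOXL2 delta72 than with LOXL2 WT. Between the forms 26 of 31 genes of this list were lower (83.9%, against 49.3% of all genes, median -0.09), and MAD1L1, which recruits MAD2L1 to kinetochores, was highest at 0.30 (SD 0.10 over 3 probe sets).

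The subunits of the APC/C and of cohesin, the ring that holds sister chromatids together, are needed in mitosis but are known to be made through the whole cycle. Of 15 APC/C subunits, 4 were lower with LOXL2 WT (26.7%, against 51.7% of all genes, median 0.04) and 6 with LOXL2 delta72 (against 49.8%, median 0.03). CDC26 was highest at 0.37 and 0.29, ANAPC15 lowest with LOXL2 WT at -0.07 (-0.18 with LOXL2 delta72) and ANAPC2 lowest with LOXL2 delta72 at -0.24. Between the forms 10 of 15 were lower (66.7%, against 49.3% of all genes), from ANAPC2 at -0.22 to CDC27 at 0.06. Of 13 genes of cohesin and its regulators, 3 and 5 were lower (23.1% and 38.5%, against 51.7% and 49.8% of all genes, medians 0.04 and 0.06). STAG1, a cohesin subunit, was highest at 0.49 and 0.38 and CDCA5 (sororin), a regulator, lowest at -0.14 and -0.16. The regulators in this list were not sorted by whether they are cell-cycle-regulated. Between the forms 9 of 13 were lower (69.2%), from SMC1A at -0.17 to WAPL at 0.05. At least 1.2-fold lower were 0 of 15 and 0 of 13 with either form, against 11.4% and 7.75% of all genes, which in lists this short is close to the background, and 1 of 15 and 2 of 13 were at least 1.2-fold higher with each form (against 13.7% and 11.0%). Set beside the 82.5% and 90.0% of the mitosis genes, these shares were lower, and with 1 array per condition the difference was not tested.

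The DNA replication and G1/S genes gave 22 of 39 lower with LOXL2 WT (56.4%, near the 51.7% of all genes, median -0.01) and 30 of 39 with LOXL2 delta72 (76.9%, against 49.8%, median -0.10). CDC6, which loads the replicative helicase, was highest at 0.64 and 0.46 (SD 0.42 and 0.32 over 2 probe sets), and MCM5 and MCM6, helicase subunits, were lowest at -0.36 with LOXL2 WT and -0.31 with LOXL2 delta72. Between the forms 29 of 39 were lower with LOXL2 delta72 (74.4%, against 49.3% of all genes, median -0.07), beside 55% and -0.01 for the mitosis genes, from MCM6 at -0.25 to POLD1, a DNA polymerase subunit, at 0.21.

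**Figure D4:**
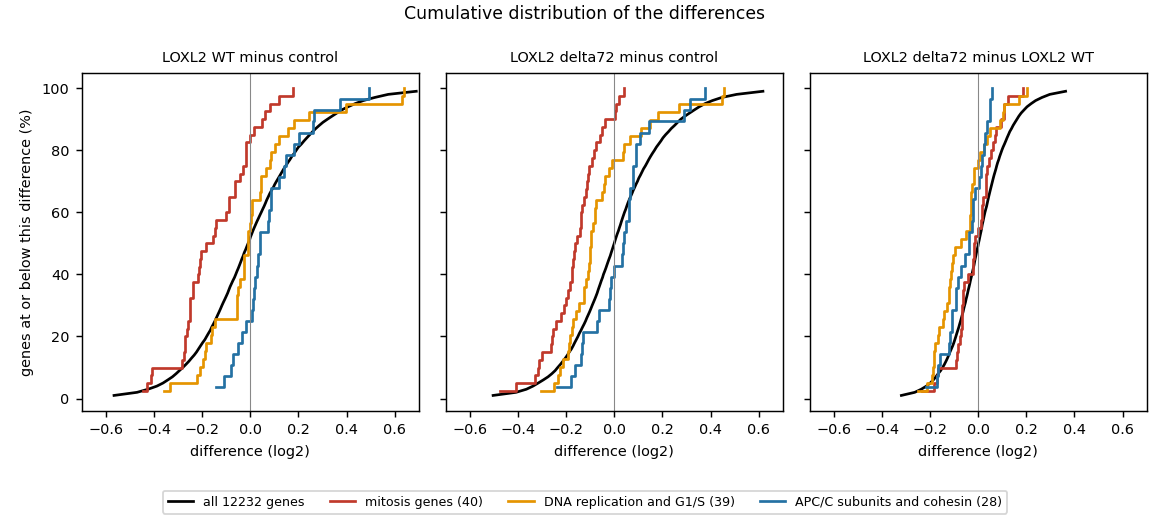
Cumulative share of genes (percent) at or below each log2 difference in the 3 comparisons, for all 12232 genes (black, shown from percentile 1 to 99), the 40 mitosis genes (red), DNA replication and G1/S genes (orange) and APC/C and cohesin genes (blue). The mitosis curve lies left of the black curve against control, with medians of -0.17 and -0.16, and near it between the forms.

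Regulators of mitotic transcription were read from a list of transcription factors and of subunits of the DREAM and MuvB complexes, which bind CHR elements. The list also held CDKN1A, which is neither. FOXM1, an activator of G2 and M genes, read 8.42 on the control array, 8.57 with LOXL2 WT and 8.46 with LOXL2 delta72, with differences of 0.15 (SD 0.22 over 3 probe sets) and 0.03 (SD 0.12). MYBL2, another such activator, read 7.92, 7.97 and 7.95. Both were named after their values were seen, and neither was lower than control. LIN37, a subunit of these complexes, was the highest of the list at 0.42 and 0.60 (SD 0.03 and 0.06 over 2 probe sets). RBL2, the pocket protein p130, was at -0.28 and -0.41, and TFDP2 at -0.31 and -0.20 with an SD of 0.56 and 0.33 over 2 probe sets. CDKN1A, the inhibitor p21, was at 0.10 and 0.30 and was the highest between the forms, at 0.20, where E2F4 was lowest at -0.22 (SD 0.08 over 2 probe sets). Of the 18 genes past the filter, 7 were lower with LOXL2 WT (38.9%, against 51.7% of all genes) and 6 with LOXL2 delta72 (33.3%, against 49.8%).

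Kinases and phosphatases of mitotic entry and exit were mixed, with 7 of 12 lower with each form (58.3%, near the 51.7% and 49.8% of all genes). CDC25A, a phosphatase that activates CDKs from G1/S onward, was 1.58-fold higher with LOXL2 WT (0.66, SD 0.13 over 3 probe sets) and 1.43-fold higher with LOXL2 delta72 (0.52, SD 0.31), the opposite side from CDC25C. PPP2R1A, the scaffold of the phosphatase PP2A, was lowest at -0.45 and -0.40. Between the forms MASTL was lowest at -0.14 and PPP2R2A highest at 0.06.

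**Figure D5:**
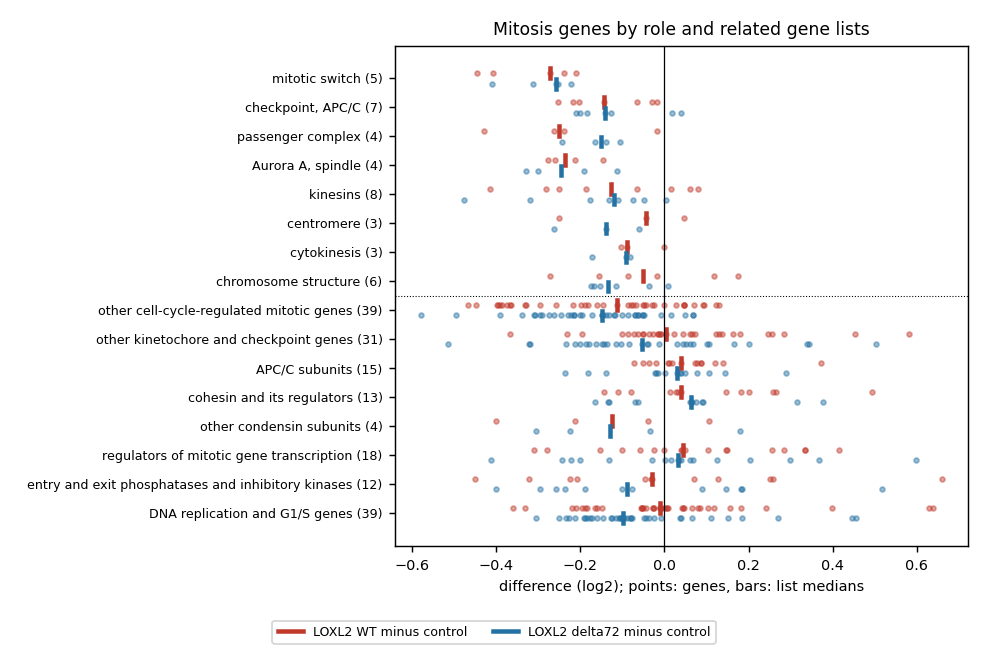
Log2 difference from control of each gene (points) and the median of each group (bars) for the mitosis genes by role (above the dotted line) and for related lists (below it), with LOXL2 WT in red and LOXL2 delta72 in blue and the number of genes in parentheses. The mitotic switch genes all lie below 0, with medians of -0.27 and -0.26, and the APC/C and cohesin medians lie just above it.

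The arrays themselves were alike in scale, with a median over all 49395 probe sets between 5.93 and 5.95. The brightest LOXL2 probe set read 7.46 on the control array and 14.05 and 14.06 on the LOXL2 arrays. Of the other 3 LOXL2 probe sets, 2 were also higher on both LOXL2 arrays, while 1 was lower, at 8.81, 8.32 and 8.66 on the control, LOXL2 WT and LOXL2 delta72 arrays. The brightest probe set, nearly equal on both LOXL2 arrays, does not tell the forms apart. Of 11 squamous epithelial markers 8 had a single-symbol probe set and all 8 passed the filter, the lowest reading being 6.95. Defining markers of fibroblasts, endothelial cells and leukocytes passed it in 1 of 7, 3 of 5 and 2 of 5 cases, none above 6.26 on any array. The 3′ to 5′ difference of the actin control probe sets, a sign of RNA length, was 1.26 on the control array, 1.46 with LOXL2 WT and 1.32 with LOXL2 delta72, and that of GAPDH lay between -0.0058 and 0.0029; their part in the lower mitosis readings was not tested.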

How the data were processed

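Biotin-labelled cRNA from 100 ng of total RNA was hybridised to Affymetrix 3′ expression arrays, per the labels' protocols. The authors deposited 1 table of log2 intensities, a scale taken from the values; Partek and Affymetrix Expression Console are named in the submitters' processing notes, and the normalization algorithm is not given in the sources used here. Of 49395 probe sets, 102 were controls and 44988 were paired with 1 gene symbol. Each gene was represented by its brightest probe set (by the mean of the 3 arrays), and dim genes, those under the 40th percentile of non-control probe sets, were set aside. Differences are log2 values of the deposited scale. The SD over a gene's probe sets above the filter is given as probe error; it includes no biological error, and the number of arrays limits the precision.

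Members and lists were chosen with earlier results of these data known. Named were all 40 members and, of each related list, the genes with the highest and lowest differences in each comparison; other names are said to be so. The counting was tested on simulated data with planted changes far larger than the differences reported here. It therefore checked the counting code only, and not how well differences of the reported size are read. Python 3.11.15, pandas 2.3.3, numpy 2.4.6 and statsmodels 0.14.6 (lowess, span 0.3) were used.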

Additional observations from a re-analysis of the deposited data

How the results depend on the processing

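No paired analysis was possible because each condition had 1 array, and for the same reason no array could be left out. Under 6 other settings (a common median, quantile normalization, lowess, the median over probe sets, no filter, a 60th percentile filter) and 1 chosen after seeing the data (without probe sets ending in _s_at or _x_at), the number of members lower with LOXL2 WT ran from 32 to 35 and with LOXL2 delta72 from 35 to 39. The 60th percentile filter kept 39 members and the setting without _s_at and _x_at probe sets 38. Only in these smaller sets were 35 lower with LOXL2 delta72. The share of all genes that were lower ran from 47.2% to 59.4% with LOXL2 WT and from 46.8% to 57.8% with LOXL2 delta72. The highest shares, and the count of 39 lower members with LOXL2 delta72, came with the common median. With each array shifted to a common median, 15 of 40 members were at least 1.2-fold lower with LOXL2 WT, against 15.2% of all genes. With LOXL2 delta72 10 of 40 were, against 10.4% of all genes, and the medians were -0.21 and -0.19. The share of all 1.2-fold calls that were lower went from 45.5% to 58.4% with LOXL2 WT and from 41.3% to 53.8% with LOXL2 delta72. After lowess, 13 of 40 members were at least 1.2-fold lower with LOXL2 WT, against 10.6% of all genes. Without _s_at and _x_at probe sets the medians over 38 members were -0.22 with LOXL2 WT and 0.00189 between the forms. NCAPH with LOXL2 WT changed sign with the median over probe sets, to 0.12, and was the 1 member at least 1.2-fold lower that did so. Counting smaller differences, 6 of 40 members changed sign with LOXL2 WT under that setting, 7 with LOXL2 delta72 and 9 between the forms. NCAPG, at 0.31, was then the 1 member at least 1.2-fold higher with LOXL2 WT. That setting also took in probe sets below the filter, among them the dimmer NCAPG one. Of 831 single-member values under these alternatives, 744 moved by less than the probe error, among them values that the setting could not change. Those were all values under the filter settings and, under the median over probe sets, those of members with 1 probe set. Without _s_at and _x_at probe sets, values of members whose brightest probe set has neither ending could not change either. The 744 therefore overstate how stable the readings were. The causes of the moves that did occur were not tested.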
